A study of Rattus norvegicus with 4 samples.

Results

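The members of 7 families of amino acid transporters and their relatives, *Slc1a*, *Slc3a*, *Slc6a*, *Slc7a*, *Slc36a*, *Slc38a* and *Slc43a*, were followed in rat liver before and after 6 h of inhalational anesthesia. They were taken from the deposited gene tables by symbol, as every gene whose name starts with one of these family names followed by a number. Of the 16999 named genes analysed, 59 matched, and the 23 whose TPM averaged 1 or more across the libraries are described here. TPM expresses the abundance of a gene's transcripts per length and library size, so that levels of different genes can be compared. *Slc7a6os* matched by its symbol but is the gene opposite *Slc7a6* and encodes no transporter, and *Slc43a3* carries nucleobases.

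RNA of the liver was sequenced from wild-type rats given 4.5% sevoflurane or 6% desflurane, which are halogenated ethers inhaled for general anesthesia. For each agent, the 0 h group was decapitated at loss of consciousness, so that the controls had also inhaled the agent, and the 6 h group was decapitated after 6 h of anesthesia. Strain and age are not given in the labels. Each of the 4 groups held 1 library, so a value has no replicate error, a comparison within an agent has no test, and every difference is one between single livers. Livers of the 0 h and 6 h groups were harvested 6 h apart, so time under anesthesia and time of day cannot be told apart. In bulk liver, fewer cells of a type and less RNA per cell also cannot be told apart. The sevoflurane 0 h library was the shallowest, with 3.5 Gb of aligned bases implied by the tables against 5.29 to 5.57 Gb in the other libraries, so that a TPM of 2 stood for a mean coverage of 4.72 there and of 6.84 to 7.28 elsewhere.

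Amino acid transporters sit in the plasma membrane or in the lysosomal membrane and move amino acids with sodium or protons, or in exchange for another amino acid. The liver takes up alanine, glutamine, arginine and other amino acids from portal blood for glucose, urea and protein synthesis. System A carriers of the *Slc38* family are known for their response to fasting hormones and to a lack of amino acids. *Slc3a2* and *Slc3a1* encode heavy chains that bring light chains of the *Slc7* family to the cell surface.

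A small number of members made up most of the transcripts. Without *Slc7a6os*, the summed TPM of the families was 715 in sevoflurane 0 h and 735 in desflurane 0 h, and 1389 and 1261 in the respective 6 h libraries, that is 1.94-fold and 1.72-fold higher. *Slc38a4* and *Slc38a3* together held between 56.9% and 63.9% of this sum. Adding *Slc7a2*, *Slc38a2* and *Slc43a1* brought the share to 75.3% and 74.1% at 0 h and to 88.8% and 85.1% at 6 h (sevoflurane and desflurane). The sum of these 5 genes was 2.29-fold and 1.97-fold higher at 6 h. The order of the mean levels was *Slc38a4* (367), *Slc38a3* (261), *Slc7a2* (140.2), *Slc6a13* (59.6), *Slc38a2* (52.7), *Slc3a2* (39.6) and *Slc43a1* (26.7). *Slc6a13*, *Slc38a2* and *Slc3a2* are neighbours in this order whose levels overlapped across the libraries.

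**Figure D1:**
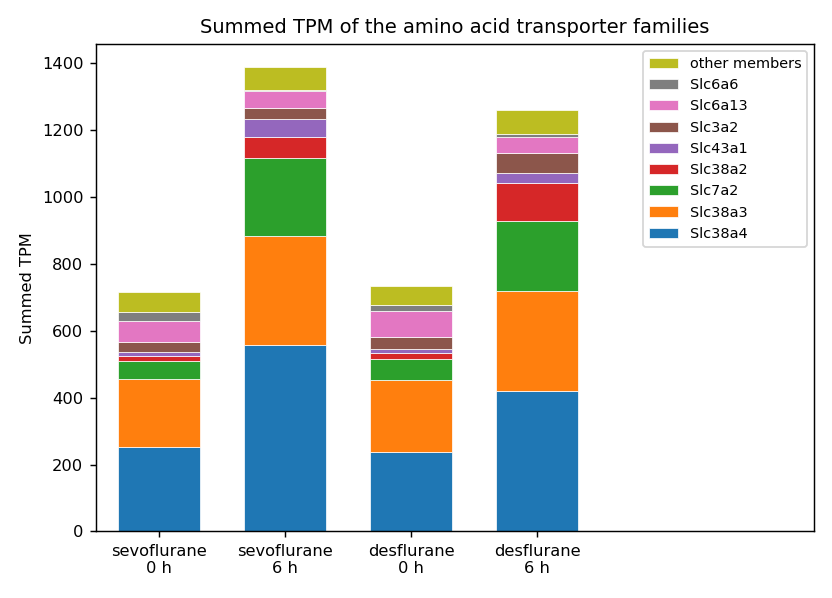
Summed TPM of the transporter families in each library (1 bar per library, without *Slc7a6os*), stacked by gene. Both 6 h bars, at 1389 and 1261, stand above both 0 h bars, at 715 and 735, and the *Slc38a4* and *Slc7a2* blocks are taller in them.

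A member was called higher or lower where the larger TPM exceeded 2 and the ratio exceeded 2. With sevoflurane, 5 of the 23 members were called higher, that is 21.7% against 4.52% of the 9201 genes whose mean TPM reached 1, and 2 were called lower, 8.7% against 3.31%. With desflurane, 5 were called higher against 3.71% of all genes, and 2 were called lower against 5.05%. *Slc7a2*, *Slc38a2*, *Slc43a1* and *Slc7a10* were higher and *Slc6a6* was lower with both agents. *Slc38a4* and *Slc38a9* were called with sevoflurane, and *Slc1a2* and *Slc7a5* with desflurane, but the difference between the agents was not tested for any of them. On the log2(TPM + 1) scale, which understates the change of low genes, the median change of the 23 members was 0.23 with sevoflurane and 0.33 with desflurane. Over all 9201 genes the medians were 0.05 and -0.10, and the median difference of the controls, desflurane minus sevoflurane, was 0.11. A scaling by the median of ratios brings these medians of all genes to about 0, and member changes are best read relative to them. In all, 17 of the 23 members had the same sign with both agents, 12 of them positive. This count was not made over all genes, so it is not read as a trait of the members.

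**Figure D2:**
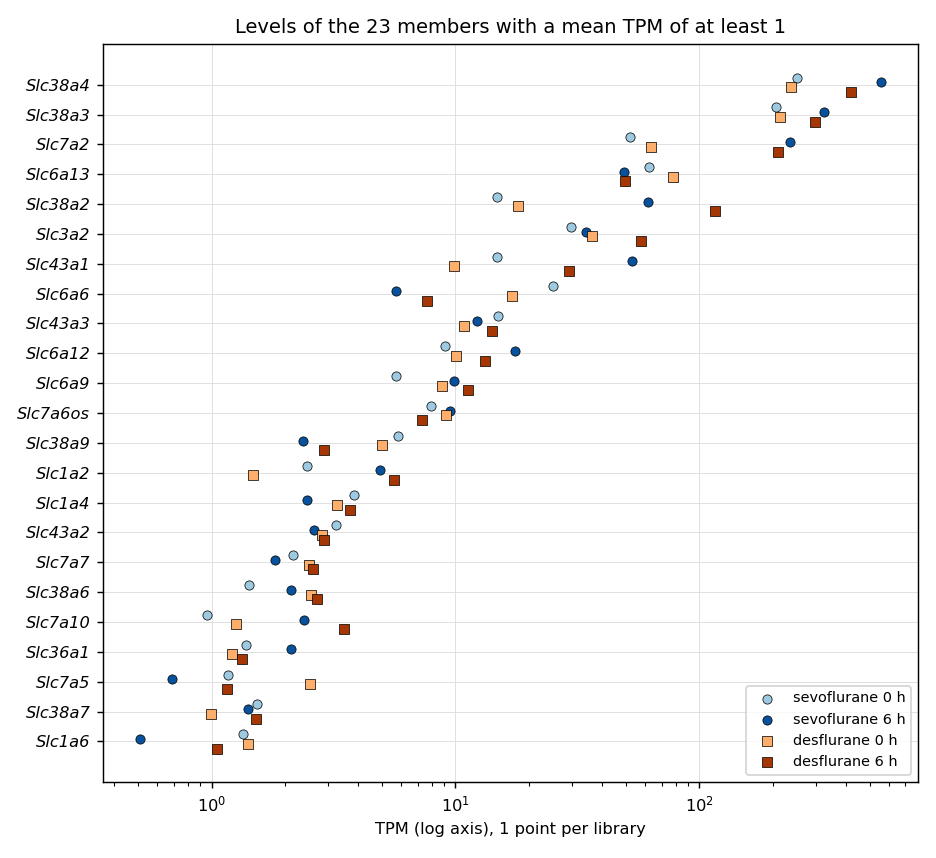
TPM of the 23 members in each library on a log axis (1 point per library, circles for sevoflurane and squares for desflurane, light for 0 h and dark for 6 h), ordered by mean TPM. The dark points of *Slc38a4*, *Slc7a2*, *Slc38a2* and *Slc43a1* lie to the right of both light points, and those of *Slc6a6* lie to the left.

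The change common to both agents was the only one with a test. It was fitted with limma over the 9201 genes on log2(TPM + 1), as 6 h against 0 h in a model that also held the agent and left 1 residual degree of freedom, and p-values were adjusted over all genes. They rest mostly on a variance shared over all genes, with a prior of 8.34 degrees of freedom beside the residual 1. They do not measure the spread between rats of a group. Of the 23 members, 7 rose (30.4% against 3.96% of all genes) and 1 fell (4.35% against 2.98%). In 9 members both 6 h libraries lay above both 0 h libraries, where 22.8% of all genes did, and in 5 members below, where 27.9% of all genes did. An exact permutation test of 2 against 2 libraries, without regard to the agent, could not go below p = 0.33.

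**Figure D3:**
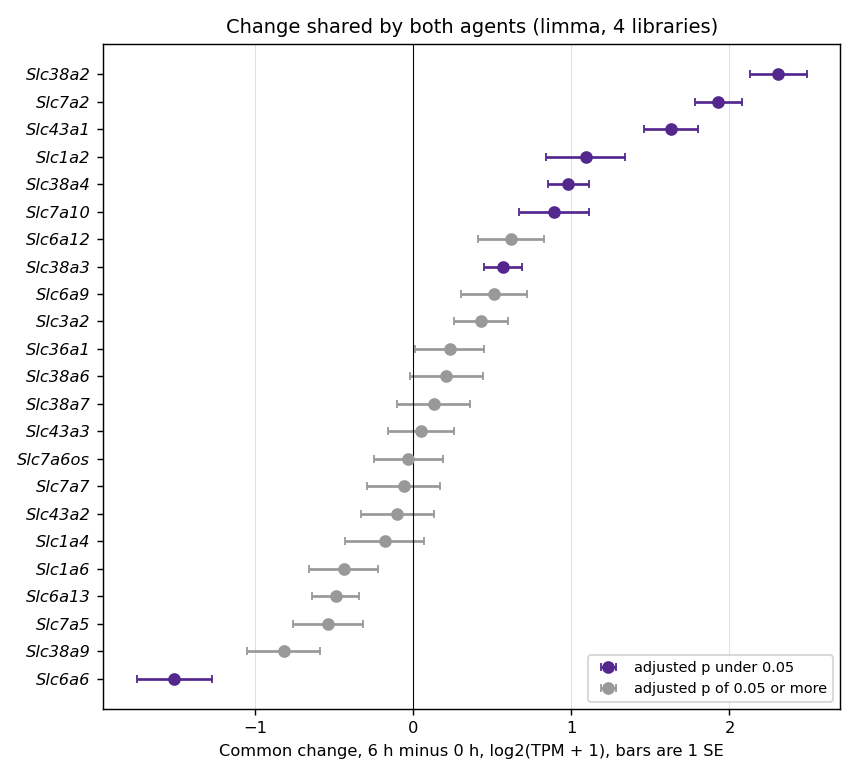
Change of log2(TPM + 1) common to both agents, 6 h minus 0 h, for the 23 members (points are limma estimates over the 4 libraries, bars are 1 SE, purple for an adjusted p under 0.05). *Slc38a2* (2.31), *Slc7a2* (1.93) and *Slc43a1* (1.63) have the largest increases and *Slc6a6* (-1.51) the largest decrease.

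The 250 bases before the transcript start are shown for the 4 most abundant members called in the common change that have an entry in the RefSeq table (GRCr8), since these are the sequences nearest to where transcription of the changed genes begins. They read 5′ to 3′ on the gene's strand, and capitals mark the E-box CACGTG, the letters bound by clock and other basic helix-loop-helix factors. *Slc38a2* (chr7:129742620-129742869, minus strand) has 72.4% G and C, *Slc38a4* (chr7:130082170-130082419, minus strand) 54.4%, *Slc43a1* (chr3:90327072-90327321, plus strand) 54% and *Slc6a6* (chr4:125752252-125752501, plus strand) 64%.
Slc38a2: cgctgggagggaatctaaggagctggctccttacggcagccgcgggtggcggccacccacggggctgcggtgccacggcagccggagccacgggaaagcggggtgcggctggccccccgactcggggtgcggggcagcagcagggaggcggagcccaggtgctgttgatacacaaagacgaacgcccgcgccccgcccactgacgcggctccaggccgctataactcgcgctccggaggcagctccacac
Slc38a4: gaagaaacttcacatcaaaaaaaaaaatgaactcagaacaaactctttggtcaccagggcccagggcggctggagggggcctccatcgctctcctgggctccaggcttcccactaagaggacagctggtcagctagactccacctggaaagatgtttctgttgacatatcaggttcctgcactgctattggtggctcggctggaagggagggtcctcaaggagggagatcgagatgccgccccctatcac
Slc43a1: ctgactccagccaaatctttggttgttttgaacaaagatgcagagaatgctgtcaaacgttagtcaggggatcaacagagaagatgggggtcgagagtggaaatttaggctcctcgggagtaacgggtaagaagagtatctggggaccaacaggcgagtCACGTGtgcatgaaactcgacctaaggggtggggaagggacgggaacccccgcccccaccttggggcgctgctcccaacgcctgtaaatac
Slc6a6: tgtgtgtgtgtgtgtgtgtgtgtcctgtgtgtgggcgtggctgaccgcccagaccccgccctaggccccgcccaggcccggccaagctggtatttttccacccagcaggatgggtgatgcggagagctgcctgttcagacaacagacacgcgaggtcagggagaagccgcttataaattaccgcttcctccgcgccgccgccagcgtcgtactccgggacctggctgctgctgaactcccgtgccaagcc
Of 4 motifs searched on both strands, chosen after the values were seen, the *Slc43a1* window held 1, the E-box at 91 bases before the start. The E-box was in 6 of the 19 described members with an entry (*Slc1a4*, *Slc1a6*, *Slc36a1*, *Slc38a7*, *Slc43a1* and *Slc7a5*) and in 5.59% of all 33469 promoters. Among these members *Slc43a1* alone was called in the common change. *Slc7a5* passed the rule of size with desflurane, and the rest passed neither rule. The cAMP response element TGACGTCA was in *Slc38a6* (1.59% of all promoters), and the composite of C/EBP and ATF sites, TGATGNAA, in *Slc1a4* (3.4%). The D-box TTATGTAA was in 0 of the 19 members (0.828% of all promoters). The windows of *Slc38a2*, *Slc38a4* and *Slc6a6* did not hold these letters. Sequence outside the 250 bases, introns included, was not searched, so such letters may lie elsewhere in these genes. A match of letters is a description and no binding site.

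The *Slc38* family encodes sodium-coupled transporters of neutral amino acids. *Slc38a2* (SNAT2), the widely expressed system A carrier of alanine, serine and proline, stood at a TPM of 14.7 in sevoflurane 0 h and 61.9 in sevoflurane 6 h, and at 18.0 in desflurane 0 h and 116 in desflurane 6 h. Both 6 h libraries lay far above both controls, which differed by 0.27 on the log2 scale, and the desflurane 6 h library was the highest. The ratio was 4.2 with sevoflurane and 6.44 with desflurane. *Slc38a2* rose in the common change by 2.31 on the log2 scale (SE 0.18, adjusted p = 7.74e-05), more than any other of the 23 members. It was called under each of the 10 alternative settings and left-out libraries, with adjusted p between 5.23e-06 and 0.0229. The deposited tables, in rn6 coordinates here and below, place it on chromosome 7 from 138088654 to 138100823 (minus strand).

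*Slc38a4* (SNAT4; chromosome 7, 138461601 to 138512952, minus strand), a system A carrier found mainly in liver, was the most abundant member and ranked 208 among all named genes by mean TPM. Its TPM went from 251 at 0 h to 558 at 6 h in the sevoflurane pair, and was 239 and 419 in the desflurane pair. The 0 h libraries were close to each other, and both 6 h libraries lay above them without overlap. The ratio was 2.22 with sevoflurane and 1.76 with desflurane, so the rule of size was passed with sevoflurane, also against the desflurane control. *Slc38a4* rose in the common change by 0.98 (SE 0.13, adjusted p = 0.0014). The call was lost without the sevoflurane 0 h library (1.02, adjusted p = 0.0556) and without the desflurane 0 h library (0.94, adjusted p = 0.0558), fits in which the agent could not be kept in the model.

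*Slc38a3* (SNAT3; chromosome 8, 116406289 to 116422328, minus strand), the system N carrier of glutamine, histidine and asparagine, stood at 205 and 324 with sevoflurane and at 214 and 298 with desflurane (0 h and 6 h). Both 6 h libraries were higher than both controls, by ratios of 1.58 and 1.39 that did not pass the rule of size. In the common change it rose by 0.57 (SE 0.12, adjusted p = 0.021). This call rested on all 4 libraries. The adjusted p was 0.201 without sevoflurane 0 h, 0.118 without sevoflurane 6 h, 0.123 without desflurane 0 h and 0.0746 without desflurane 6 h, with changes between 0.51 and 0.63.

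The balance within the family moved as well. *Slc38a4* exceeded *Slc38a3* by a ratio of 1.22 and 1.12 in the controls and of 1.72 and 1.41 at 6 h (sevoflurane and desflurane). *Slc38a2* amounted to 5.87% of *Slc38a4* in sevoflurane 0 h and 11.1% in sevoflurane 6 h, and to 7.55% in desflurane 0 h and 27.7% in desflurane 6 h. These ratios were not tested. Of the other family members, *Slc38a9*, *Slc38a7* and *Slc38a6* were near or above a TPM of 1 and are described with the lysosomal transporters.

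*Slc7a2* (CAT2; chromosome 16, 54460067 to 54513349, minus strand) encodes a carrier of the cationic amino acids arginine, lysine and ornithine. Its TPM was 52.1 at 0 h and 235 at 6 h of sevoflurane, and 63.6 and 209.9 for desflurane. The 0 h libraries differed by 0.28 on the log2 scale, and the 6 h libraries, by 0.16 in the other direction, both lay above 200. The ratio was 4.52 with sevoflurane and 3.3 with desflurane. *Slc7a2* rose in the common change by 1.93 (SE 0.15, adjusted p = 6.4e-05) and was called under all 10 alternative settings and left-out libraries, with adjusted p between 4.12e-06 and 0.00392. The other cationic carriers of the list were low, with a TPM of at most 0.26 for *Slc7a1*, the widely expressed CAT1, and *Slc7a2* was the single one of 5 whose mean TPM reached 1.

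*Slc43a1* (LAT3; chromosome 3, 72238796 to 72265023, plus strand) encodes a sodium-independent carrier of leucine, other branched-chain amino acids and phenylalanine. It stood at 14.8 and 52.9 in the 0 h and 6 h libraries of sevoflurane, and at 9.85 and 29.4 in those of desflurane. Both sevoflurane libraries were higher than the desflurane library of the same time, and within each agent the 6 h library was higher by a ratio of 3.57 and 2.98. The desflurane control lay 0.55 below the sevoflurane control. *Slc43a1* rose in the common change by 1.63 (SE 0.17, adjusted p = 0.000467), a call that was lost without the desflurane 0 h library (1.35, adjusted p = 0.0838). Against the control of the other agent it passed the rule of size with sevoflurane and missed it with desflurane. The locus assembled from the same reads at this place gave 16.2 and 56.0 with sevoflurane and 5.4 and 32.6 with desflurane, so that the change with desflurane was 2.39 in place of 1.48.

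The other members of the family did not pass either rule. *Slc43a2* (LAT4) stayed between a TPM of 2.63 and 3.25. *Slc43a3* stood at 15.0 and 12.3 with sevoflurane and at 10.8 and 14.2 with desflurane, with a common change of 0.05 (SE 0.21, adjusted p = 0.948).

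The *Slc6* family encodes sodium- and chloride-coupled carriers of neurotransmitters, osmolytes and amino acids. Its summed TPM was 103 in sevoflurane 0 h and 115 in desflurane 0 h against 82.8 and 82.6 at 6 h, so its share of the transporter transcripts was 14.4% and 15.6% at 0 h and 5.96% and 6.55% at 6 h. *Slc6a6*, the taurine transporter, stood at 25.0 and 5.72 with sevoflurane and at 17.1 and 7.64 with desflurane. Among the 23 described members it had the largest decrease with either agent, with a ratio of 0 h to 6 h of 4.37 and 2.24, and the groups did not overlap. *Slc6a6* fell by 1.51 on the log2 scale in the common change (SE 0.24, adjusted p = 0.00497). Without the sevoflurane 0 h library the change was -1.25 and the call was lost (adjusted p = 0.0607). It lies on chromosome 4 from 123642197 to 123713319, on the minus strand in the deposited table and on the plus strand in GRCr8.

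*Slc6a13* (GAT2), a carrier of GABA and taurine in liver, was the most abundant member of the family, at 62.2 and 49.0 with sevoflurane and at 78.0 and 49.4 with desflurane. The 6 h libraries were close to each other and both lay below both controls. The common change of -0.49 (SE 0.15, adjusted p = 0.0937) did not pass the test. Added to *Slc6a6*, the pair of carriers that can transport taurine had a summed TPM of 87.2 and 95.1 at 0 h and of 54.8 and 57.0 at 6 h, that is 1.59-fold and 1.67-fold higher at 0 h. *Slc6a12* (BGT1), the neighbouring gene on chromosome 4, which carries betaine and GABA, was at 9.03 and 17.6 with sevoflurane and at 10.1 and 13.2 with desflurane. The glycine transporter *Slc6a9* was at 5.72 and 9.89 and at 8.79 and 11.3. In both genes the 6 h libraries lay above the controls, but the common changes of 0.62 (SE 0.21, adjusted p = 0.131) and 0.51 (SE 0.21, adjusted p = 0.232) did not pass the test.

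**Figure D4:**
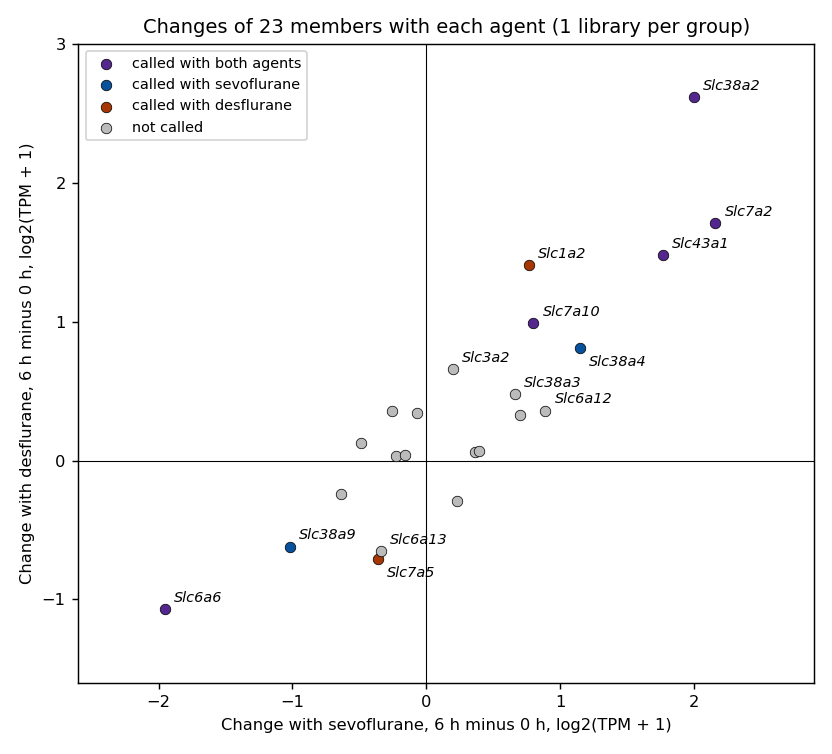
Change of log2(TPM + 1), 6 h minus 0 h, of the 23 members with sevoflurane (horizontal axis) and desflurane (vertical axis), colored by the rule of size (TPM above 2 and ratio above 2). *Slc38a2*, *Slc7a2*, *Slc43a1* and *Slc7a10* lie in the upper right and *Slc6a6* in the lower left, and each point rests on 1 library per group.

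The *Slc1* family comprises the glutamate transporters and the exchangers of alanine, serine and cysteine. *Slc1a2* (GLT-1; chromosome 3, 92518679 to 92665731, plus strand), the glutamate transporter that in liver is known from hepatocytes around the central vein, had a TPM of 2.47 at 0 h and 4.91 at 6 h of sevoflurane, and of 1.48 and 5.6 for desflurane. Both 6 h libraries lay above both controls, and the desflurane control was the lowest of the 4. The ratio was 1.99 with sevoflurane, just under the limit of 2, and 3.78 with desflurane. Against the control of the other agent it passed the rule of size with both. *Slc1a2* rose in the common change by 1.09 (SE 0.25, adjusted p = 0.029). The adjusted p was 0.0512 without sevoflurane 0 h, 0.152 without desflurane 0 h and 0.0934 without desflurane 6 h, and in the controls its mean coverage was 5.4 and 5.11, so its values are the less precise ones.

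*Slc1a4* (ASCT1) stood at 3.84 and 2.46 with sevoflurane and at 3.27 and 3.68 with desflurane, and *Slc1a6* (EAAT4) at 1.35 and 0.509 and at 1.42 and 1.05. Neither passed a rule. *Slc1a5* (ASCT2), a glutamine exchanger, was at 0.426 and 0.538 with sevoflurane and at 0.641 and 0.372 with desflurane, below the level described here.

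*Slc3a2* (CD98), the heavy chain that carries *Slc7* light chains to the surface, had a TPM of 29.8 and 34.5 in the sevoflurane pair and of 36.4 and 57.9 in the desflurane pair (0 h and 6 h). The desflurane 6 h library stood above the rest, while the sevoflurane 6 h library lay below the desflurane control. The ratios were 1.16 and 1.59, and the common change of 0.43 (SE 0.17, adjusted p = 0.1995) did not pass the test. The heavy chain was 5.18 to 7.34 times as abundant as the sum of the light chains known to pair with it in the 4 libraries. *Slc3a1*, the other heavy chain, was at 0.603 and 0.505 with sevoflurane and at 0.248 and 0.342 with desflurane.

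The light chains were low. *Slc7a5* (LAT1; chromosome 19, 54693959 to 54722563, minus strand), an exchanger of large neutral amino acids, stood at 1.17 and 0.691 with sevoflurane and at 2.53 and 1.16 with desflurane. The desflurane control was the high one of the 4, and the desflurane 6 h library was at the level of the sevoflurane control. The ratio of 0 h to 6 h with desflurane was 2.18, which passed the rule of size. Against the sevoflurane control the call was lost, and the locus assembled from the same reads gave 2.51 and 0.916 with sevoflurane and 2.53 and 2.38 with desflurane. The common change was -0.54 (SE 0.22, adjusted p = 0.2298).

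*Slc7a10* (Asc-1), an exchanger of glycine, serine, alanine and cysteine, had a TPM of 0.96 and 2.4 with sevoflurane and of 1.26 and 3.5 with desflurane. Both 6 h libraries lay above both controls, by ratios of 2.5 and 2.78. With the controls exchanged between the agents, the rule of size was passed with desflurane and missed with sevoflurane. *Slc7a10* rose in the common change by 0.89 (SE 0.22, adjusted p = 0.0429), but the mean coverage in sevoflurane 0 h was 2.27. The call was lost in 5 of 9 alternatives, with an adjusted p of 0.0625 with no agent in the model, 0.0505 with a pseudocount of 0.1, 0.291 without sevoflurane 0 h, 0.143 without desflurane 0 h and 0.206 without desflurane 6 h. The gene lies on chromosome 1 from 91433030 to 91448566 (plus strand) and shares 206 bp with *Lrp3* on the opposite strand. *Lrp3* was more abundant, at 19.9 and 35.2 with sevoflurane and at 21.4 and 34.6 with desflurane, so that it too was higher at 6 h. The libraries are stranded, but whether strand was used for the abundances is not stated in the labels or processing notes, and the part of *Lrp3* reads in the *Slc7a10* values was not tested.

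Of the remaining light chains, *Slc7a7* (y+LAT1), an exchanger of cationic for neutral amino acids, stayed between 1.83 and 2.61. *Slc7a8* (LAT2) did not exceed 0.314 and *Slc7a11* (xCT), the cystine and glutamate exchanger, did not exceed 0.0766. *Slc7a6os* stayed between 7.3 and 9.52, with a common change of -0.03 (SE 0.22, adjusted p = 0.969).

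Transporters of the lysosome link stored amino acids to growth signalling. *Slc38a9* (chromosome 2, 44524060 to 44589470, plus strand), the arginine sensor that acts on mTORC1, stood at 5.82 and 2.37 with sevoflurane and at 5.0 and 2.89 with desflurane. Both 6 h libraries lay below both controls, by ratios of 2.45 and 1.73 of 0 h to 6 h. It passed the rule of size with sevoflurane, and with both agents when the controls were exchanged, but its common change of -0.82 (SE 0.23, adjusted p = 0.0752) did not pass the test. *Slc38a7* (SNAT7), which exports glutamine from lysosomes, stayed between 0.996 and 1.53, and *Slc36a1* (PAT1), which exports small amino acids with protons, between 1.22 and 2.12. *Slc38a6*, a less studied member of the *Slc38* family, lay between 1.42 and 2.71, with the lowest value in sevoflurane 0 h. These 3 genes passed neither rule. At the assembled locus, however, *Slc36a1* stood at 1.02 and 2.47 with desflurane, which passed the rule of size. The assembled locus of *Slc38a9* gave a change of -0.97 with sevoflurane and of -0.26 with desflurane, in place of -1.02 and -0.62.

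The other 36 members had a mean TPM under 1. Of these, 15 were listed at 0 in all 4 libraries, among them *Slc6a19*, the main carrier of neutral amino acids in kidney and intestine, and *Slc6a14*. *Slc36a4* alone among the 36 reached a TPM of 1 in any library, at 0.914 and 0.784 with sevoflurane and at 1.03 in both desflurane libraries. *Slc7a4*, named after its values were seen, was at 0.632 and 0.0158 with sevoflurane and at 0.389 and 0.45 with desflurane, so a single library was low.

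The controls were compared with each other as a measure of the difference between livers taken at the same stage. Of the 23 members, 1 was called higher in the desflurane control (*Slc7a5*), against 1.76% of all genes, and 0 were called lower, against 0.696%. For *Slc38a4*, *Slc38a3*, *Slc7a2*, *Slc38a2*, *Slc43a1*, *Slc6a6*, *Slc1a2* and *Slc7a10* the difference between the controls was smaller than the smaller of both changes, at most 0.55 on the log2 scale. For *Slc3a2*, *Slc6a9* and *Slc7a5*, among others, it was not. It was also smaller for *Slc6a13*, *Slc6a12*, *Slc38a9*, *Slc7a6os* and *Slc1a6*, which were not called in the common change. The members named first are those called in the common change, and the controls enter both changes, so this comparison is no separate support for the calls. It was not made over all genes. Between the 6 h libraries, 0 members were called higher in desflurane 6 h, against 1.96% of all genes, and 0 lower, against 1.58%. The nearest to the limit were *Slc38a2*, which was 0.9 higher in desflurane 6 h on the log2 scale, *Slc43a1*, 0.83 lower, and *Slc3a2*, 0.73 higher.

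Other genes of amino acid transport were read from a list of 21, and in 10 the mean TPM reached 1. In the common change 4 rose (3.96% of all genes did) and 0 fell (2.98%), and with each agent 3 were called higher (4.52% of all genes with sevoflurane and 3.71% with desflurane). The median change of the 10 was 0.38 with sevoflurane and 0.25 with desflurane, beside 0.05 and -0.10 over all genes. *Slc16a10* (TAT1), a carrier of aromatic amino acids, stood at 4.73 and 14.1 with sevoflurane and at 3.83 and 12.7 with desflurane (common change 1.45, SE 0.21, adjusted p = 0.00289). The other 3 were carriers of the mitochondrial membrane. *Slc25a15*, which exchanges ornithine and citrulline for the urea cycle, stood at 110.4 and 282 and at 114 and 346 (1.47, SE 0.13, adjusted p = 0.000135). *Slc25a29*, a carrier of basic amino acids, stood at 0.59 and 2.5 and at 0.768 and 10.9 (1.95, SE 0.35, adjusted p = 0.00864). The glutamate carrier *Slc25a22* stood at 10.2 and 18.4 and at 20.2 and 31.4 (0.70, SE 0.18, adjusted p = 0.0445). Its controls lay apart, at 10.2 and 20.2, and its sevoflurane 6 h library was below the desflurane control. *Ctns*, the lysosomal cystine exporter, was called lower with desflurane, from 2.45 to 0.981, as were 5.05% of all genes. With sevoflurane it stood at 1.245 and 1.735, so the desflurane control was its highest value. In a list of 13 partners and sensors of transport, 10 genes reached that mean and 0 were called by either rule, with medians of 0.14 and -0.01.

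The amino acid response was read from genes known as targets of the transcription factor ATF4 or as part of its pathway, to which *Slc38a2* is also known to respond. Of the 18 that reached a mean TPM of 1, 0 were called higher and 4 lower with sevoflurane (*Phgdh*, *Mthfd2*, *Fgf21* and *Cth*), and 3 higher (*Trib3*, *Atf3* and *Cebpb*) and 1 lower (*Psph*) with desflurane. Of all genes 4.52% were higher and 3.31% lower with sevoflurane, and 3.71% and 5.05% with desflurane, so the single gene lower with desflurane is near the background. The medians were -0.38 and 0.20. *Fgf21* stood at 25.1 and 2.59 with sevoflurane and at 5.95 and 5.52 with desflurane (0 h and 6 h). Its call thus leaned on a high sevoflurane control. The sevoflurane and desflurane controls also lay apart for *Phgdh* (2.44 and 5.56), *Mthfd2* (2.21 and 3.13) and *Cth* (516 and 329). They did so for *Trib3* (4.97 and 3.02) and *Cebpb* (42.25 and 28.4), and lay closer for *Atf3* (0.861 and 1.04) and *Psph* (8.54 and 10.2). In the common change *Trib3* (1.58, SE 0.32, adjusted p = 0.0156) and *Cebpb* (1.71, SE 0.30, adjusted p = 0.00819) rose and *Cth*, the enzyme that makes cysteine from cystathionine, fell by 1.53 (SE 0.24, adjusted p = 0.00497).

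Markers of the cells a piece of liver can hold were read in the same libraries. The 8 hepatocyte markers had a summed TPM between 98505 and 110660. The summed periportal markers, which include induced enzymes such as *Sds*, were at 2663 and 2750 at 0 h and at 5970 and 5501 at 6 h, and the pericentral ones at 1430 and 1510 and at 2220 and 2529 (sevoflurane and desflurane). The red blood cell markers, 8 of 10 listed in the tables, were also higher at 6 h, at 1673 and 1866 against 632 and 992, and all 5 whose mean TPM reached 1 rose in the common change. The 8 stellate cell markers had a summed TPM of 122 and 132 at 0 h and of 178.5 and 185.5 at 6 h, and 1 of them rose in the common change. Of the markers whose mean TPM reached 1, 4 of 9 periportal ones also rose and 1 fell. Among the pericentral ones 3 of 9 rose, and among the hepatocyte ones 1 of 8. Of all genes 3.96% rose and 2.98% fell. Kupffer cell markers lay between 509 and 666, endothelial ones between 158 and 189 and cholangiocyte ones between 7.05 and 8.67. Lymphocyte markers were at 14.4 and 7.27 with sevoflurane and at 9.14 and 7.71 with desflurane (0 h and 6 h). Of the 3 whose mean TPM reached 1, 2 were called lower with sevoflurane, as were 3.31% of all genes. Neutrophil markers were at 2.26 and 4.42 with sevoflurane and at 3.12 and 2.27 with desflurane, with *Mpo* and *Elane* at 0. Pancreatic acinar markers lay between 24.6 and 30.3 with *Prss1*, *Pnlip* and *Ctrb1* at 0. The part of the marker groups that moved with time in the changes of the transporters was not tested.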

How the data were processed

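RNA sequencing of rat liver was analysed in 4 libraries, 1 per group, with groups taken from the sample titles. Per the labels, liver was kept in RNAlater, RNA was extracted with RNeasy Midi and libraries were made with a TruSeq stranded total RNA kit. The submitters' processing notes name HISAT2, SAMtools, StringTie and the build rn6, without versions or settings. For each library, the authors deposited 1 table of gene abundances. The deposited TPM column was handled as a score, since loci assembled from the reads fill its total and named genes come on top. The FPKM column deposited by the authors is proportional to TPM, and its signal column, the mean coverage per base, is not scaled for library size. No read counts were used, so no counting interval is given.

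Rows of named genes longer than 200 bp were summed by symbol, and 16999 genes remained. Each of the 59 members had 1 row. The members and lists were chosen with earlier results of these data known. A gene was called where the larger TPM was above 2 and more than 2 times the smaller. The common change was fitted with limma 3.58.1 (R 4.3.3; eBayes with trend, two-sided, Benjamini-Hochberg over 9201 genes, adjusted p below 0.05) on log2(TPM + 1), with a prior of 8.34 degrees of freedom. Steps were tested on simulated data with a small spread, in which well expressed genes changed strongly and alike with both agents. Small changes and low members were not covered by that test. Full values were given for called members, the 5 most abundant ones and a fixed set of carriers, and the other members above the minimum mean were named with their values or range. Coordinates are those of the deposited tables. Promoters were matched by symbol to RefSeq (GRCr8) for 45 of 59 members and 19 of the 23 described. Alternatives were the ratio, the minimum TPM, the pseudocount, scaling by the median of ratios, the control of the other agent, the agent term, leaving out each library and, chosen after seeing the data, the assembled locus on the same strand and leaving out *Slc7a6os*.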

Additional observations from a re-analysis of the deposited data

Results flagged for a closer look

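In 6 members the change of log2(TPM + 1) had opposite signs with the agents, in single pairs of libraries, and the difference between the agents was not tested. None of the 6 was called with either agent by the rule of size or in the common change. The change with desflurane exceeded that with sevoflurane by 0.62 for *Slc1a4* (-0.49 with sevoflurane and 0.13 with desflurane), by 0.62 for *Slc43a3* (-0.26 and 0.36), by 0.41 for *Slc38a7* (-0.07 and 0.34), by 0.25 for *Slc43a2* (-0.23 and 0.03) and by 0.21 for *Slc7a7* (-0.16 and 0.04). For *Slc7a6os* the difference was -0.52 (0.23 and -0.29). With the assembled locus, *Slc43a2* was higher with both agents (0.65 and 0.28), while the other genes named here kept opposite signs.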

How the results depend on the processing

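With 1 library per group, no setting adds replicates, and low members are limited by depth. The 7 members called with sevoflurane became 13 with a ratio above 1.5 and 4 with a ratio above 3, and stayed between 6 and 9 under the other settings. The split of 5 higher and 2 lower became 4 higher and 5 lower with the assembled loci, where *Slc1a4*, *Slc1a6* and *Slc7a5* were added as lower and *Slc7a10* had no locus. The 7 called with desflurane became 11 and 3, and stayed between 5 and 7 otherwise. Between the controls, the 1 call became 5 with a ratio above 1.5 and 0 with a ratio above 3, a minimum TPM of 5 or scaling by the median of ratios. Between the 6 h libraries, the 0 calls became 4 with a ratio above 1.5 and 1 (*Slc1a6*) with no minimum TPM. The 8 calls of the common change became 3 to 7 with a library left out, in fits without the agent and with 1 residual degree of freedom, in which the lone library of a time was assumed to vary like the others: 3 without sevoflurane 0 h or desflurane 0 h, 5 without desflurane 6 h and 7 without sevoflurane 6 h. *Slc38a2* and *Slc7a2* were called in each of these. The median change with sevoflurane was 0.676 with the minimum mean TPM raised to 5, 0.000 with no minimum and 0.153 against the other control, and with desflurane 0.419, 0.000 and 0.192, and 0.398 after scaling. No called value changed sign. Under another pseudocount, the scaling and the assembled locus, 118 changes of single members within an agent moved by no more than their difference between the controls and 18 by more. The assembled locus was not fitted for the common change. There, calls were lost with a library left out, and that of *Slc7a10* also with no agent in the model and with a pseudocount of 0.1. Using the largest row of a symbol changed nothing, since each member had 1 row. Each liver came from another rat, so no libraries were paired by animal. The agent was the block in the common change, which sets the 6 h library of each agent against its own control.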
